A study of Mus musculus with 4 samples.

Results

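The cells described here are 86 of 30362 kept cells of mouse liver, chosen by a marker rule for hepatic stellate cells in 4 droplet single-cell RNA libraries. A barcode was kept when 500 to 6000 genes were detected in it and no more than 10% of its UMIs were mitochondrial, a UMI (unique molecular identifier) counting 1 captured RNA molecule. A kept cell was chosen when Dcn, Lrat, Reln, Colec11, Ecm1, Rgs5, Des and Col1a1 together made up at least 0.8% of its UMIs. The endothelial genes Pecam1, Kdr, Stab2, Clec4g, Ptprb, Cdh5, Egfl7, Oit3 and Dnase1l3 had to sum to less than 0.5%, and Ptprc, the common leukocyte gene, had to have 0 UMIs. These values chose the cells, so the levels of these genes are description and support nothing.

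The study made 1 library of primary liver cells from 1 mouse of each of 4 genotypes, untreated. WT is genetically unmodified, YAPKO lacks Yap1, TAZKO lacks Wwtr1 (the gene of TAZ), and DKO lacks both. The deletions joined loxP alleles with Cre recombinase under the albumin promoter, which acts in hepatocytes and biliary epithelial cells, so the chosen cells were not the targeted cells. Hepatocytes and non-parenchymal cells were isolated apart and mixed before loading, so shares of cells describe the libraries and not the livers. The labels give no age for the sequenced mice, and the study describes these genotypes at 10 weeks. With 1 mouse and 1 library per genotype, genotype, mouse and library cannot be told apart in anything below.

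Hepatic stellate cells lie between the sinusoidal endothelium and the hepatocytes. They store vitamin A as retinyl esters made by the enzyme LRAT and secrete growth factors such as HGF, and in injured liver they can turn into contractile cells that lay down fibrillar collagen. YAP and TAZ are co-activators at the end of the Hippo pathway that act through TEAD transcription factors, with Ccn1 and Ccn2 among their most studied target genes.

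The rule chose 28 cells in WT, 12 in YAPKO, 25 in TAZKO and 21 in DKO. These were 0.391% of the kept cells in WT (exact Clopper-Pearson 95% interval 0.260 to 0.565%), 0.191% in YAPKO (0.0989 to 0.334%), 0.289% in TAZKO (0.187 to 0.427%) and 0.253% in DKO (0.157 to 0.387%). The YAPKO share was the lowest of the 4, and its interval overlaps those of the others. The chosen cells held 206280 UMIs in WT, 141659 in YAPKO, 113485 in TAZKO and 171630 in DKO. Their median depth was 7282 UMIs in WT, 11139.5 in YAPKO, 4995 in TAZKO and 9003 in DKO, and in each library it lay above the median of all kept cells. The median marker sum was 3.21% in WT, 1.82% in YAPKO, 2.31% in TAZKO and 1.2% in DKO. The cells nearest the marker threshold inside it had 0.879% in WT, 1.07% in YAPKO, 0.833% in TAZKO and 0.863% in DKO, and the nearest outside it 0.679%, 0.551%, 0.719% and 0.781% in the same order. Pairs of libraries shared 10 to 67 cell barcodes, 9 to 26 of them among kept cells, and no chosen cell had a barcode that another library's chosen cells also had.

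The endothelial limit removed far more cells than it kept. Of 472 kept cells that reached the marker sum, 343 were left out at the endothelial limit and 43 more by a Ptprc UMI. The removed cells numbered 123 in WT, 58 in YAPKO, 93 in TAZKO and 69 in DKO, with a median endothelial sum of 1.14%, 1.00%, 0.863% and 0.974% in that order. They held 54.3% of all Dcn UMIs of the kept cells, against 14.0% in the 86 chosen cells. Their share of cells that held RNA of a second cell was not tested. Most genes of the stellate-like cells below are therefore read again in a wider set, chosen after the data were seen. It has the same stellate sum and no Ptprc, no endothelial limit, and at least 0.2% from Lrat, Reln and Colec11, and it holds 118 cells in WT, 46 in YAPKO, 77 in TAZKO and 54 in DKO.

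**Figure D1:**
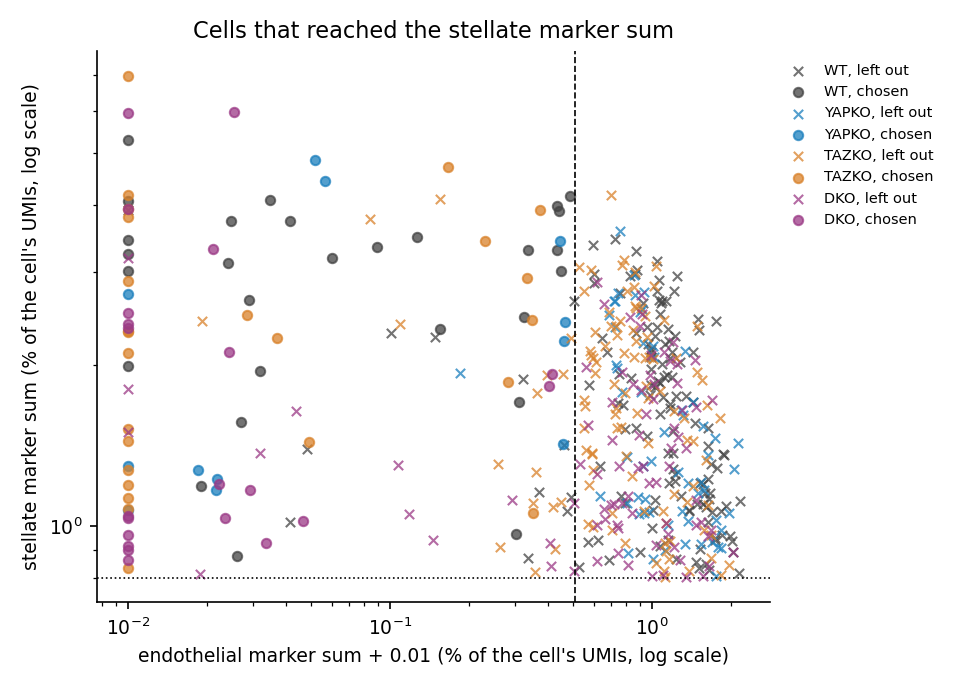
Stellate marker sum against endothelial marker sum, both in % of the cell's UMIs on log scales, for the 472 kept cells that reached the stellate sum. Circles are the 86 chosen cells, crosses the cells left out, colours the libraries, the dashed line the endothelial limit and the dotted line the stellate threshold; crosses left of the dashed line hold a Ptprc UMI.

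The label fits only part of the chosen cells. Clustering the 86 cells, with each gene centred within its library, gave 3 subgroups, which are named below from marker lists and are not proven cell types. Lrat, Reln and Colec11 had 278, 514 and 1594 UMIs in a stellate-like subgroup of 62 cells. In the other 24 cells together they had 1 UMI of Lrat, none of Reln and 2 of Colec11. Dcn, which encodes the matrix proteoglycan decorin, was high in all 3 subgroups, at 15839, 9116 and 12130 CPM (UMIs of a gene in 1000000 UMIs summed over the cells). The marker rule therefore also takes in cells that carry Dcn without the stellate genes, and the whole set is called here the chosen cells.

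A portal fibroblast-like subgroup of 17 cells had 496 UMIs of Pi16, 421 of Dpt, 695 of Clec3b and 39 of Thy1, and all 11 portal fibroblast markers were detected in it. A mesothelial-like subgroup of 7 cells had all 5 mesothelial markers, with 147 UMIs of Upk3b, 59 of Gpm6a, 39 of Upk1b, 28 of Lrrn4 and 27 of Msln. In stellate-like cells Thy1, Upk3b, Upk1b, Lrrn4 and Msln had 0 UMIs. These genes separated the clusters, so their differences are no result. The 5 genes leading each subgroup by fold were Plvap, Colec11, Colec10, Reln and Masp1 for the stellate-like, Ccl11, Pi16, Ebf1, Pla1a and Dpep1 for the portal fibroblast-like, and Slpi, Upk3b, Krt19, Lgals7 and Cldn15 for the mesothelial-like cells. Median depth was 6457 UMIs in stellate-like, 8636 in portal fibroblast-like and 11006 in mesothelial-like cells. Clustering without centring moved 1 cell, and a resolution of 0.5 in place of 0.3 gave 4 subgroups.

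**Figure D2:**
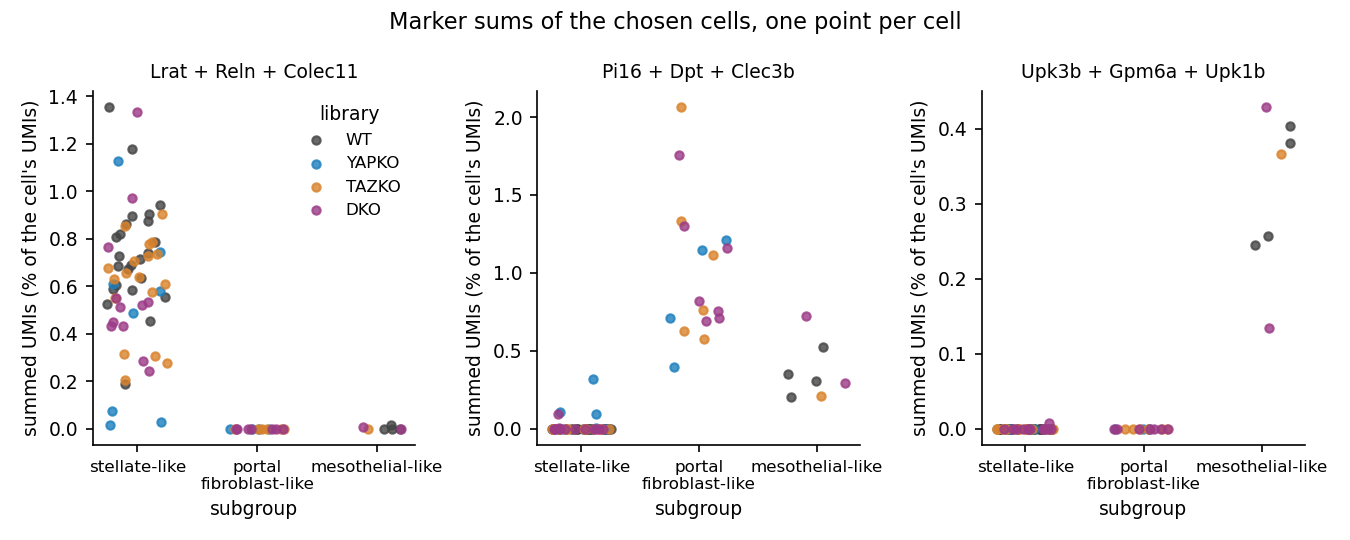
Summed UMIs of 3 genes in each panel, in % of the cell's UMIs, for every chosen cell by subgroup, coloured by library. Lrat, Reln and Colec11 are high in most of the 62 stellate-like cells. Among these 62, 3 YAPKO cells have only 0.0293%, 0.0752% and 0.0169%, and 1 WT cell has 0.190%. Pi16, Dpt and Clec3b are high in the 17 portal fibroblast-like cells and Upk3b, Gpm6a and Upk1b in the 7 mesothelial-like cells.

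The libraries contributed unequally to the subgroups. The stellate-like subgroup had 24 cells from WT, 8 from YAPKO, 18 from TAZKO and 12 from DKO. The portal fibroblast-like subgroup had 0, 4, 6 and 7 cells in that order, and 0 of 28 WT cells allows a share of up to 10.7%. The mesothelial-like subgroup had 4, 0, 1 and 2 cells, and 0 of 12 YAPKO cells allows up to 25%. With so few cells these numbers are accounting and not a comparison, yet they weight every sum over the chosen cells. They are the reason why the comparisons below are given a second time in stellate-like cells alone.

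RNA of other liver cells was present at different levels. The 19 hepatocyte markers were all detected in every library's chosen cells and summed to 8392 CPM in WT, 1595 in YAPKO, 11129 in TAZKO and 15003 in DKO, led by Apoc1 in WT and YAPKO and by Alb in TAZKO and DKO. In DKO 1 cell held 1689 of the 2575 hepatocyte UMIs, and without the cell with the most in each library the sums were 7974, 1295, 10124 and 5616 CPM. The 9 endothelial markers were all detected, at 1464, 1539, 943 and 641 CPM in the same order, led by Clec4g in WT and by Ptprb in the other 3. Of 9 Kupffer cell markers, 9, 4, 7 and 8 were detected, at 591, 63.5, 300 and 175 CPM, led by Cd5l in WT and TAZKO, by Clec4f in YAPKO and by C1qb in DKO. Those at 0 UMIs were Cd5l, Vsig4, Timd4, Marco and Csf1r in YAPKO, C1qb and Csf1r in TAZKO and Timd4 in DKO. Of 7 smooth muscle markers, Cnn1, Actg2, Pln and Cspg4 had 0 UMIs in each of the 4 libraries, and Myh11 in TAZKO, with sums of 213, 897, 61.7 and 355 CPM led by Tagln.

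Markers of portal fibroblasts and mesothelium were read over all chosen cells and in the stellate-like cells. Over all chosen cells, of 11 portal fibroblast markers 6, 10, 11 and 11 were detected in WT, YAPKO, TAZKO and DKO, at 1488, 4885, 7085 and 6269 CPM, led by Pi16 in TAZKO and by Clec3b in the other 3. Thy1, Gli1, Pi16, Mfap4 and Dpt had 0 UMIs in WT, and Gli1 in YAPKO. Of 5 mesothelial markers all were detected except in YAPKO, which had none, at 887, 0, 344 and 460.3 CPM, led by Upk3b in WT and TAZKO and by Gpm6a in DKO. The stellate-like cells also held portal fibroblast markers, with 3, 9, 2 and 6 of the 11 detected at 57.2, 2383, 143 and 391 CPM, led by Gas1 in WT and TAZKO, Mfap4 in YAPKO and Dpt in DKO. Their smooth muscle markers summed to 209.6, 1256, 107 and 690.0 CPM, led by Tagln in each library. The subgroup was thus not free of portal fibroblast and smooth muscle RNA, most of all in YAPKO. Its hepatocyte markers summed to 10063 CPM in WT, 1671 in YAPKO, 16866 in TAZKO and 25552 in DKO, and were lowest in YAPKO. The part of such RNA in the results was not tested beyond leaving out the cells with more of it.

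Yap1 and Wwtr1 were read first, as a check of the labels. The 3' tag of these libraries may lie outside the deleted part, and the position of the deletion was not used here, so a remaining signal checks nothing. In hepatocytes, Yap1 was at 21.3 CPM in WT, 4.64 in YAPKO, 47.6 in TAZKO and 4.50 in DKO. Wwtr1 there was at 4.89, 13.1, 1.48 and 2.35 CPM in the same order. Each gene was thus lower in the hepatocytes of the libraries labelled as lacking it.

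In the chosen cells Yap1 had 13 UMIs in WT, 1 in YAPKO, 4 in TAZKO and 4 in DKO, which is 63.0, 7.06, 35.3 and 23.3 CPM. The log2 ratio to WT was -3.16 in YAPKO (95% interval from counting error only, -8.57 to -0.42), -0.84 in TAZKO (-2.91 to 0.86) and -1.44 in DKO (-3.51 to 0.26). The YAPKO value rests on 1 UMI and moves to -0.19 with 42 UMIs when the endothelial limit is dropped. Wwtr1 had 14, 12, 9 and 11 UMIs, which is 67.9, 84.7, 79.3 and 64.1 CPM, and its 3 intervals against WT all contain 0. Endothelial cells, also outside the reach of the albumin promoter, had Yap1 at 39.9, 33.7, 52.2 and 42.4 CPM and Wwtr1 at 148, 157, 141 and 162 CPM. At this depth no difference in Wwtr1 was detectable in the chosen cells, which carried it above hepatocytes and Kupffer cells and below endothelial cells in each library.

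**Figure D3:**
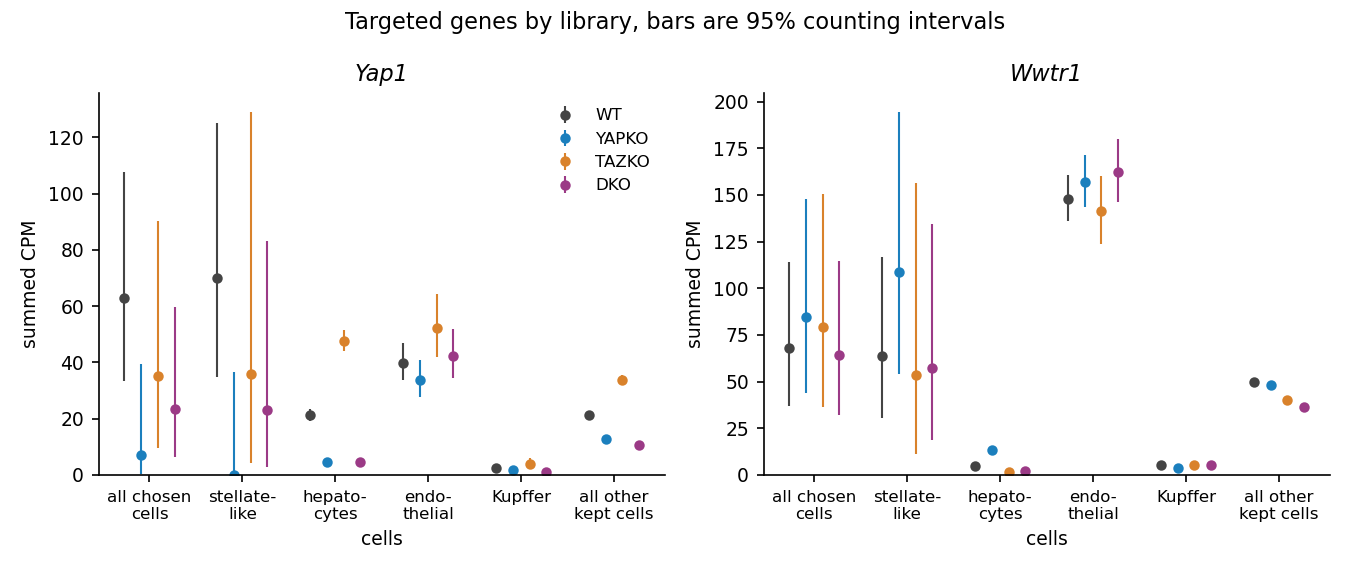
Summed CPM of Yap1 (left) and Wwtr1 (right) in the chosen cells, their stellate-like subgroup and other cells, by library, with exact Poisson 95% intervals. The intervals of the chosen cells are wide because 1 to 14 UMIs stand behind each point.

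Genes outside the rule that set the chosen cells apart from the other kept cells of the same library were ranked by their smallest log2 ratio over the 4 libraries. The first 15 were Fbln1, Dpt, Clec3b, Gpc3, Mfap5, Igfbp6, Nbl1, Ccl11, Aebp1, Col3a1, Fndc1, Meg3, Cavin3, Loxl1 and Ogn, with smallest log2 ratios from 8.31 down to 6.57. Fbln1, which encodes the matrix glycoprotein fibulin-1, had 238 CPM in WT, 360 in YAPKO, 132 in TAZKO and 105 in DKO, against 0.747 CPM in the other kept cells of WT. Dpt had 0 UMIs in the WT chosen cells and the other kept WT cells alike, and Ccl11 was at 0 and 0.0192 CPM, so their WT ratios of 7.98 and 6.98 come only from the added 1 and they do not set the WT cells apart. Of these 15 genes, all were lower in stellate-like cells than in at least 1 of the other subgroups. Igfbp6, a binding protein for insulin-like growth factors, had 22.4 CPM in stellate-like, 2883 in portal fibroblast-like and 6367 in mesothelial-like cells. The rule used this contrast, so no test was made.

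Between libraries, genes were compared over all chosen cells when their mean was at least 176.2 CPM, the level at which the shallowest library is due 20 UMIs, which left 927 genes. A gene counted when its log2 ratio, with 1 added to each UMI count, was at least 1 or at most -1. Against WT, 94 genes were higher (10.1% of those tested) and 91 lower (9.82%) in YAPKO. In TAZKO 87 were higher (9.39%) and 94 lower (10.1%), and in DKO 95 were higher (10.2%) and 73 lower (7.87%). Between DKO and YAPKO, 55 genes were higher in DKO (5.93%) and 32 lower (3.45%), and 1 of the 55, Hspa1a, rests on counts of 3 and 0. These 3 comparisons with WT share the WT cells and are not independent. Without the endothelial limit the counts were 73 in YAPKO, 102 in TAZKO and 81 in DKO, so the totals depend on that limit.

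Over all chosen cells, the named genes were read against the subgroups. In each comparison with WT, the 10 named higher genes all had their highest level in portal fibroblast-like cells, a subgroup with no WT cell. Rps3a3, 1 of the 10 in TAZKO and in DKO, has 0 UMIs in WT and YAPKO in every subgroup, so its place there follows which libraries fill the subgroups. Gsn, the actin-severing protein gelsolin, was at 48.5 CPM in WT, 5033 in YAPKO, 4212 in TAZKO and 2470.4 in DKO. Pi16, a peptidase inhibitor, was at 0, 770, 1947 and 996 CPM, at least 52.9-fold higher than WT in YAPKO, 133.9-fold in TAZKO and 68.5-fold in DKO. Dpt, the matrix protein dermatopontin, was at 0, 988, 1472 and 1055 CPM. Of the 10 named lower genes, 8 in YAPKO, 6 in TAZKO and 6 in DKO had their highest level in mesothelial-like cells. That subgroup had 4 WT cells of 7 and no YAPKO cell, so a peak there also carries which libraries fill it, for Hspa1a and Rps3a1 among others. Slpi, a secreted protease inhibitor, was at 2482 CPM in WT, 0 in YAPKO, 1895 in TAZKO and 2669 in DKO, at least 117.2-fold lower in YAPKO.

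The lists over all chosen cells are read beside the shares of all 927 genes given above, 9.39 to 10.2% higher and 7.87 to 10.1% lower. Of 11 collagen genes tested, 7 in YAPKO, 6 in TAZKO and 8 in DKO were at least 2-fold higher than WT and none lower, with medians of 1.84, 1.07 and 1.75. Col1a1 is 1 of the 11 and a rule gene, and without it 6, 5 and 7 of 10 were higher, with medians of 1.79, 0.97 and 1.51. The medians of all 927 genes were 0.05, -0.08 and 0.05. Of 19 genes for matrix, proteases and inhibitors, 10 were higher in each, with 1, 0 and 2 lower and medians of 1.29, 1.59 and 1.17. Ecm1, a rule gene, belongs to this list. The floor of 176.2 CPM is a mean over the libraries. Genes low in WT, such as Dpt at 0 CPM and Mmp2 at 9.70 CPM there, were thus tested only through the other libraries. The counts and medians of the collagen and matrix lists are therefore partly set by the floor. Of 7 rule genes 5, 2 and 3 were lower and 1 higher (Col1a1), with medians of -1.13, -0.51 and -0.79. Of 22 further stellate identity genes 12, 3 and 7 were lower, with 1, 0 and 0 higher and medians of -1.09, -0.52 and -0.81. In stellate-like cells alone, over fewer genes, the rule, identity and collagen medians of YAPKO were close to these, at -1.04, -0.98 and 1.85, while those of TAZKO (-0.07, -0.14 and 0.39) and DKO (-0.31, -0.29 and 1.41) lay nearer to 0. Without Col1a1 the collagen medians there were 0.19 in YAPKO, 0.35 in TAZKO and 0.67 in DKO. How far the YAPKO medians rest on a few cells is given below.

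The remaining lists over all chosen cells, with their medians in YAPKO, TAZKO and DKO, are read beside the same shares, and a list of few genes can hardly be told from them. Of 4 retinoid genes tested, the rule gene Lrat among them, 2, 2 and 1 were lower and 1 higher in each, with medians of -0.69, -1.08 and -0.75. Of 13 activation and contraction genes, 5, 2 and 2 were higher and 1, 3 and 1 lower, with medians of 0.70, -0.04 and 0.48. Of 6 YAP target genes, 3, 1 and 3 were lower and 2, 1 and 1 higher, with medians of -1.06, -0.52 and -1.30. The higher YAP targets were Axl in each library and Ccdc80 in YAPKO, and the lower ones came from Ccn1, Ccn2 and Igfbp3, so the list did not move 1 way. Of 14 immediate early and heat shock genes, 9, 8 and 8 were lower and 1 higher (Klf4), with medians of -1.24, -1.39 and -1.18. Of 10 interferon-stimulated genes 3, 5 and 3 were lower and none higher, with medians of -0.68, -0.94 and -0.78. Of 13 secreted signals 6, 4 and 5 were lower and 1, 1 and 2 higher, with medians of -0.95, -0.43 and -0.78. Of 6 TGF-beta and PDGF genes none was lower and 2, 2 and 1 were higher, with medians of 0.38, 0.35 and 0.02. The 2 portal-side genes tested, Igfbp3 and Tagln, had medians of 0.15, -1.18 and -1.15, and the central-side gene Rspo3 had -0.43, -0.14 and -0.76. The cell division list had 1 gene tested, Tubb5, at 0.37, -0.31 and -0.22, and the Hippo and sex-linked lists had none. With genes at 0 UMIs held at their bound of 3 UMIs, the medians of all these lists stayed within 0.09 of these values.

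In the 62 stellate-like cells alone, 401 genes reached the floor, which was 357.3 CPM there. Against WT, 35 genes were higher (8.73%) and 49 lower (12.2%) in YAPKO, 15 higher (3.74%) and 24 lower (5.99%) in TAZKO, and 30 higher (7.48%) and 18 lower (4.49%) in DKO. The floor is a mean over the 4 libraries, so a gene low in WT was tested only where other libraries lift it, and counts of higher genes carry this. S100a6 counts among the 15 in TAZKO only through the added 1, since both libraries had 0 UMIs. The median log2 ratio of the 401 genes was 0.06 in YAPKO, -0.09 in TAZKO and 0.13 in DKO, so values in DKO are best read against 0.13. Scaling by the median ratio turned the TAZKO split of 15 higher and 24 lower into 19 and 17. Of the 401 genes 25 passed in YAPKO, 39 in TAZKO and 24 in DKO in the wider set, against 84, 39 and 48 here, and 23, 17 and 17 of them passed in the same direction in both. The TAZKO split there was 8 higher and 31 lower. Counts of list members in stellate-like cells below are read beside the shares of all 401 genes, 3.74 to 8.73% higher and 4.49 to 12.2% lower.

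Some stellate-like cells held little of the stellate genes. Lrat, Reln and Colec11 together made up less than 0.2% of the UMIs in 1 WT cell and in 3 of the 8 YAPKO cells, and in no TAZKO or DKO cell. The 3 YAPKO cells, at 0.0293%, 0.0752% and 0.0169%, held 61020 of the 101122 UMIs of the YAPKO stellate-like cells. A stricter set, added after the data were seen, leaves these 4 cells out and holds 23 cells in WT, 5 in YAPKO, 18 in TAZKO and 12 in DKO. Of the 401 genes 39 passed in it in YAPKO, 43 in TAZKO and 46 in DKO, so the YAPKO number depends on these cells. The third of them had 227 Mgp, 61 Mfap4 and 38 Pi16, Dpt and Clec3b UMIs, and it is the cell that leaves the subgroup without centring. Whether the 3 are stellate cells was not settled here.

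Fibrillar collagen differed between libraries in stellate-like cells. Col1a2, which encodes a chain of type I collagen, was at 311 CPM in WT, 3629 in YAPKO, 357 in TAZKO and 1391 in DKO. Against WT its log2 ratio was 3.54 in YAPKO (lower bound 3.11), 0.20 in TAZKO (-0.63 to 0.98) and 2.16 in DKO (1.67 to 2.67). Col3a1, the chain of type III collagen, was at 349, 5657, 465 and 3864 CPM, a log2 ratio of 4.02 in YAPKO (3.62 to 4.44), 0.41 in TAZKO (-0.32 to 1.11) and 3.47 in DKO (3.05 to 3.91). Both genes were high in YAPKO and DKO and near WT in TAZKO. Portal fibroblast markers were also highest in YAPKO and DKO, as given above, and their part in the collagen was not tested. Col1a1, the other chain of type I collagen and 1 of the 8 rule genes, had 1, 331, 0 and 97 UMIs. Col14a1, a collagen associated with fibrils, was at 2662, 2413, 2626 and 2967 CPM, and its 3 intervals against WT contain 0. Of the 6 collagen genes tested, 3 were higher in YAPKO, 0 in TAZKO and 3 in DKO, all 3 being Col1a1, Col1a2 and Col3a1, with list medians of 1.85, 0.39 and 1.41. Without Col1a1, which the rule used, 2, 0 and 2 of 5 were higher, with medians of 0.19, 0.35 and 0.67. All 3 genes were below the floor of 357.3 CPM in WT and were tested through the libraries where they are high, so the count is partly set by the floor.

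A few cells held most of this collagen. At least 0.3% of a cell's UMIs from Col1a1, a limit set after the data were seen, was reached by 2 YAPKO cells and 1 DKO cell. The 2 YAPKO cells held 296 of the 331 Col1a1 UMIs and 48.6% of all UMIs of YAPKO stellate-like cells. The DKO cell held 84 of 97 Col1a1 UMIs and 11.7% of the UMIs. The 2 YAPKO cells reached the marker sum, at 1.425% and 1.223%, only with Col1a1, without which they had 0.744% and 0.697%, so the rule itself chose part of this collagen. The DKO cell keeps 1.53% without it. Over all chosen cells 0, 2, 2 and 4 cells of WT, YAPKO, TAZKO and DKO fall below 0.8% without Col1a1. A further 2 YAPKO cells lay close below the limit, at 0.177% and 0.217%. Of the 2 YAPKO cells, both had a low sum of Lrat, Reln and Colec11, 0.0293% and 0.0752%, against a YAPKO median of 0.535%, and the DKO cell had 0.245%. Without these 3 cells Col1a2 was at 1348 CPM in YAPKO (log2 ratio 2.11, 1.57 to 2.67) and 651 in DKO (1.07, 0.47 to 1.66), and Col3a1 at 1752 (2.33, 1.83 to 2.84) and 1081 CPM (1.63, 1.12 to 2.15). The number of genes past 2-fold in YAPKO was then 46 in place of 84. The third YAPKO cell with little of the stellate genes, at 0.177% Col1a1, is still in these values. In the stricter set, which leaves it out, Col1a2 was at 319 CPM in WT, 673 in YAPKO, 357 in TAZKO and 1391 in DKO, with log2 ratios of 1.08 (0.34 to 1.79), 0.16 (-0.67 to 0.94) and 2.13 (1.63 to 2.64). Col3a1 there was at 352, 1995, 464.5 and 3864 CPM, with ratios of 2.50 (lower bound 1.98), 0.40 (-0.34 to 1.10) and 3.46 (lower bound 3.04). Of the 121 UMIs of Col1a1, Col1a2 and Col3a1 in the 5 YAPKO cells 1 cell held 100, and the other 4 cells lay at 0.0246 to 0.109% of their UMIs, inside the WT range. Without the cell with the most of these UMIs in each library, the stricter set had Col1a2 at 309, 327, 373 and 651 CPM, with ratios of 0.08 (-1.02 to 1.06), 0.27 (-0.59 to 1.08) and 1.08 (0.46 to 1.70). Col3a1 was then at 294, 297, 353 and 1081 CPM, with ratios of 0.01 (-1.15 to 1.04), 0.26 (-0.62 to 1.09) and 1.88 (1.32 to 2.45). The higher collagen of YAPKO in the stricter set thus rests on 1 cell and is lost without it, while that of DKO is smaller and stays past 2-fold.

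In the wider set YAPKO and DKO were also the highest 2 libraries, with smaller ratios than in stellate-like cells and DKO above YAPKO. Col1a2 there was at 182 CPM in WT, 443 in YAPKO, 280 in TAZKO and 502 in DKO, with log2 ratios of 1.28 (1.01 to 1.55), 0.62 (0.30 to 0.93) and 1.46 (upper bound 1.72). Col3a1 was at 235, 815, 409 and 1209 CPM, with log2 ratios of 1.79 (1.58 to 2.01), 0.80 (0.53 to 1.07) and 2.36 (2.16 to 2.57). Col1a1 was at 6.23, 203, 13.5 and 271 CPM, with log2 ratios of 5.02, 1.12 and 5.44. Without the cell with the most collagen UMIs in each library, the wider set had Col1a2 at 179.8, 350, 265 and 396 CPM, with ratios of 0.96 (0.67 to 1.25), 0.56 (0.23 to 0.88) and 1.14 (0.87 to 1.42). Col3a1 there was at 227, 642.5, 372 and 825 CPM, with an interval of the ratio from 1.27 to 1.74 in YAPKO and ratios of 0.71 (0.43 to 0.99) in TAZKO and 1.86 (1.64 to 2.09) in DKO. Higher Col1a2 and Col3a1 in DKO was thus found in each of these sets, while in YAPKO it was found in the wider set and rested on 4 of the 8 cells in the stellate-like subgroup. These sets share nearly all of the 12 DKO stellate-like cells, so they are not independent. Single cells spread widely within a library: the sum of Col1a1, Col1a2 and Col3a1 ran from 0.0246% to 2.36% in YAPKO with a median of 0.371%, and from 0% to 4.003% in DKO with a median of 0.222%. In WT it ran from 0% to 0.160% with a median of 0.0482%.

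**Figure D4:**
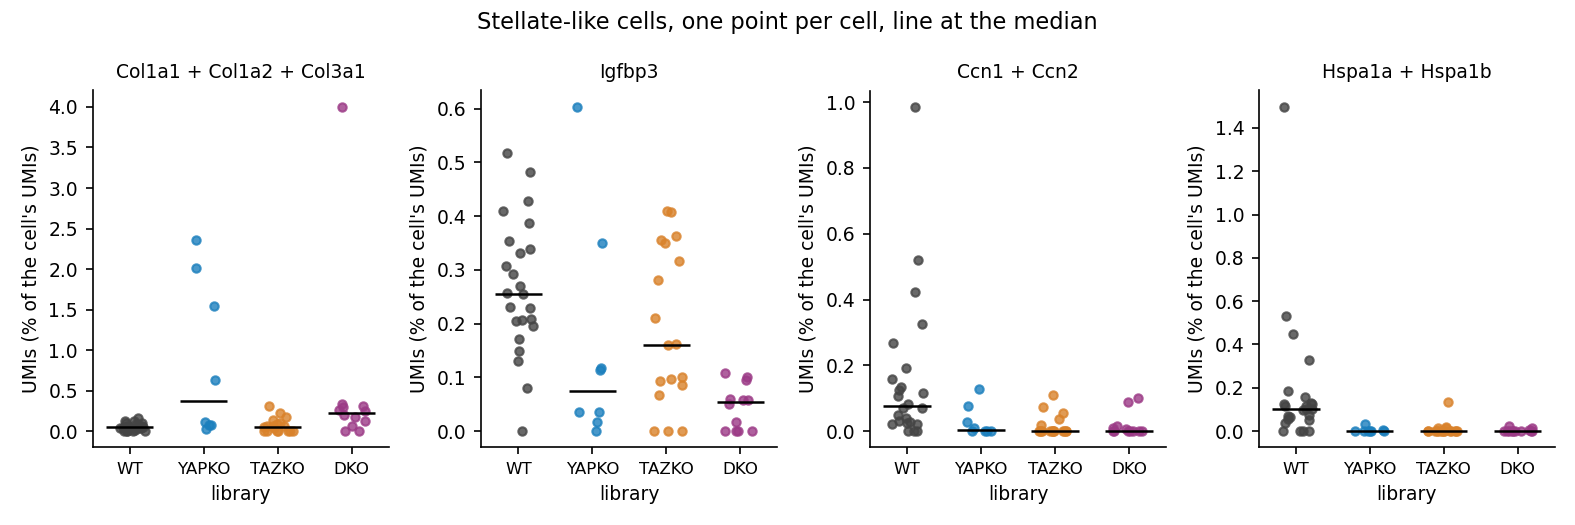
UMIs of 4 gene sums in % of the cell's UMIs, for each of the 62 stellate-like cells by library, with a line at the median. The collagen sum is above 2% in 2 YAPKO cells and 1 DKO cell, and the WT cells hold the highest values of the Ccn1 and Ccn2 and the Hspa1a and Hspa1b sums.

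Some genes of activation and contraction were also higher in YAPKO and DKO, in YAPKO mostly through the same 3 cells. Vim, the intermediate filament vimentin, was at 349 CPM in WT, 1928 in YAPKO, 214 in TAZKO and 1161 in DKO, with log2 ratios of 2.46 (2.03 to 2.92), -0.70 (-1.74 to 0.21) and 1.73 (1.25 to 2.23). Lgals1, the lectin galectin-1, was at 184, 1197, 161 and 690.0 CPM, with ratios of 2.70 (2.10 to 3.34), -0.20 (-1.46 to 0.92) and 1.91 (1.24 to 2.60). For the wider set the ratios of Vim were 0.69, -0.57 and 0.99 and those of Lgals1 0.87, -0.91 and 1.47, so only Lgals1 in DKO stayed past 2-fold there. S100a6, a calcium-binding protein, had 0 UMIs in WT and TAZKO, 110 in YAPKO and 40 in DKO, at least 57.1-fold and 24.1-fold higher than WT. Without the 3 Col1a1-high cells S100a6 was at 443 CPM in YAPKO and 13.0 in DKO. With them it was at 460 CPM in DKO, so there it rested almost wholly on 1 cell. The stricter set keeps that DKO cell, and Vim and Lgals1 in DKO are not given without it. In the stricter set Vim had ratios of 0.53 (-0.29 to 1.30), -0.69 (-1.73 to 0.24) and 1.75 (lower bound 1.25), Lgals1 had 1.44 (0.56 to 2.30), -0.26 (-1.52 to 0.86) and 1.84 (1.18 to 2.53), and S100a6 had 0 UMIs in YAPKO and 40 in DKO. Of 12 tested genes of this list, 6 were higher in YAPKO, 1 in TAZKO (S100a6, at 0 UMIs in both) and 4 in DKO, and none lower, with medians of 1.39, -0.09 and 0.74. Of all 401 genes 8.73%, 3.74% and 7.48% were higher. The higher genes of the list, Lgals1, Mgp, S100a6, Tagln, Tpm1 and Vim, were all below the floor in WT and tested through YAPKO or DKO, so its count too is partly set by the floor. In the stricter set 2, 1 and 4 were higher, with medians of 0.63, -0.12 and 0.68. The wider set had 2, 0 and 3 higher and 1 lower in TAZKO, with medians of 0.52, -0.32 and 0.54. Of all 401 genes 19, 17 and 29 were higher in the stricter set and 6, 8 and 11 in the wider set.

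Acta2 and Mgp rested on single cells, and Tagln in YAPKO mostly on 2 cells, which held 68 of its 80 UMIs. Acta2, smooth muscle actin, had 0 UMIs in WT and TAZKO, 42 in YAPKO and 5 in DKO, and 1 YAPKO cell held 41 of the 42. Mgp, matrix Gla protein, an inhibitor of matrix calcification, had 2 UMIs in WT, 227 in YAPKO and 0 in TAZKO and DKO, and 1 YAPKO cell held all 227. Tagln, transgelin, was at 197, 791, 107 and 564 CPM. Without the cell with the most Tagln UMIs in each library it was at 126, 389, 60.8 and 397 CPM, and without the Col1a1-high cells at 231 in YAPKO and 456 in DKO. In the stricter set its ratios were 0.54 (-0.56 to 1.54), -0.94 (-2.49 to 0.34) and 1.45 (0.77 to 2.15), and Acta2 and Mgp had 0 UMIs in YAPKO. Tagln in the wider set was at 70.3, 193, 61.8 and 294 CPM, with log2 ratios of 1.46 (1.04 to 1.88), -0.19 (-0.83 to 0.42) and 2.06 (1.68 to 2.46).

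In stellate-like YAPKO cells the higher genes of the matrix list had smaller ratios than Col1a2 and Col3a1. Of 7 tested genes for matrix, proteases and inhibitors, 3 were higher and 1 lower in YAPKO, none passed in TAZKO and 1 was higher in DKO, with medians of 0.75, -0.04 and 0.34. Of all 401 genes 8.73%, 3.74% and 7.48% were higher and 12.2%, 5.99% and 4.49% lower. Timp3, an inhibitor of metalloproteinases, was at 172 CPM in WT, 584 in YAPKO, 322 in TAZKO and 449 in DKO, with ratios of 1.77 (1.09 to 2.48), 0.91 (-0.04 to 1.82) and 1.39 (0.64 to 2.15). The other 2 higher genes in YAPKO were Lum and Timp2, both with a log2 ratio of 1.22. For the stricter set Timp3 in YAPKO had 2.35 (1.56 to 3.16), Timp2 -0.32 (-1.47 to 0.68) and Lum 0.11 (-0.46 to 0.64). In the wider set Timp3 was at 555, 648, 720 and 852 CPM, with ratios of 0.22 (0.04 to 0.41), 0.37 (0.19 to 0.56) and 0.62 (0.45 to 0.79), and Timp2 had 0.85, 1.47 and 1.80. None of the 7 genes was higher in YAPKO there, with medians of 0.20, 0.38 and 0.29, so the Timp3 and Timp2 calls in YAPKO are lost in the wider set. Ecm1, which encodes extracellular matrix protein 1 and belongs to the rule, was at 6296, 2205, 5967 and 3714 CPM, a ratio of -1.51 in YAPKO (-1.73 to -1.30), -0.08 in TAZKO (-0.26 to 0.10) and -0.76 in DKO (-0.95 to -0.58). The Ecm1 ratios of the wider set were -0.66, -0.23 and -1.04, and that of the stricter set was -0.29 in YAPKO (-0.51 to -0.07).

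Some stellate identity genes outside the rule were at least 2-fold lower in YAPKO in stellate-like cells, and none was in the stricter or wider set. Of 18 tested identity genes outside the rule, 8 were lower and none higher in YAPKO, 1 was higher in TAZKO (Vipr1, a receptor for vasoactive intestinal peptide) and 1 lower in DKO (Angptl6, a secreted angiopoietin-like protein). Their medians were -0.98, -0.14 and -0.29, against 0.06, -0.09 and 0.13 for all 401 genes. Of the 7 rule genes tested, 4 were lower and 1 higher in YAPKO, none passed in TAZKO and 1 was higher in DKO, with medians of -1.04, -0.07 and -0.31. The rule genes chose the cells, so these values are description and support nothing. In the stricter set, itself chosen on Lrat, Reln and Colec11, the identity genes outside the rule had 0 lower and 1 higher in YAPKO with a median of -0.30. Without the Col1a1-high cells 5 of them were lower in YAPKO, with a median of -0.48. The wider set, also chosen on those 3 genes, had none of them higher or lower in any library, with medians of -0.32, 0.45 and -0.10, so the Vipr1, Angptl6 and YAPKO calls are lost there. Colec11, a secreted lectin of the complement system, was at 5178, 2235, 3859 and 3875 CPM, a log2 ratio of -1.21 in YAPKO (lower bound -1.43), which became -0.30 (-0.53 to -0.09) without the Col1a1-high cells. Reln, the secreted glycoprotein reelin, was at 1436, 692, 1965 and 1242 CPM, a ratio of -1.05 in YAPKO (-1.46 to -0.66). Both genes belong to the rule and also helped choose the stricter and wider sets, so their levels are no test. Pth1r, a receptor for parathyroid hormone, was at 1105, 277, 965 and 805 CPM, a ratio of -2.00 in YAPKO (-2.63 to -1.42), -1.26 without the Col1a1-high cells, -0.93 (-1.61 to -0.31) in the stricter set and -0.55 in the wider set.

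Retinoid genes were sparse. Lrat was at 953 CPM in WT, 425 in YAPKO, 536 in TAZKO and 633 in DKO, with ratios of -1.16 (-1.69 to -0.67), -0.83 (-1.45 to -0.26) and -0.59 (-1.06 to -0.14). Over the wider set, chosen in part on Lrat, it was at 738, 601, 729.6 and 535 CPM. Of the 3 retinoid genes tested, 1 was lower in YAPKO (Lrat) and none passed in TAZKO or DKO, with medians of -0.60, -0.73 and -0.46. Without the Col1a1-high cells none was lower in YAPKO, with a median of -0.22, and Lrat there had a ratio of -0.38 (-0.93 to 0.14). Lrat is a rule gene, so its call is description and supports nothing. The stricter and wider sets were also chosen in part on it, so its levels in them are no test.

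Among YAP target genes, Igfbp3 was lowest in DKO in each set of cells. Igfbp3, a binding protein for insulin-like growth factors, was at 2833 CPM in WT, 1157 in YAPKO, 2394 in TAZKO and 506 in DKO, with log2 ratios of -1.29 (lower bound -1.60), -0.24 (-0.53 to 0.04) and -2.49 (-2.97 to -2.04). In the wider set it was at 1362, 1471, 1515 and 400 CPM, with ratios of 0.11 (-0.01 to 0.23), 0.15 (0.03 to 0.28) and -1.77 (-1.97 to -1.58). The lower level in DKO held in both sets, while the lower level in YAPKO did not. The ratios of the stricter set, which holds the same DKO cells, were -0.12 (-0.45 to 0.19), -0.24 (-0.53 to 0.05) and -2.48 (-2.96 to -2.03). Per cell, the median of Igfbp3 was 0.256% of UMIs in WT, 0.0746% in YAPKO, 0.161% in TAZKO and 0.0545% in DKO, and the highest DKO cell had 0.109%, below the WT median. Over all other kept cells Igfbp3 was at 43.2 CPM in WT, 24.4 in YAPKO, 36.7 in TAZKO and 9.76 in DKO, so it was lowest in DKO there as well.

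Ccn1 and Ccn2, which encode matricellular proteins, were highest in WT. Ccn2 was at 953 CPM in WT, 237 in YAPKO, 89.3 in TAZKO and 207 in DKO, with log2 ratios of -2.01 (-2.69 to -1.38), -3.42 (-5.06 to -2.16) and -2.20 (-3.00 to -1.49). Ccn1, below the floor of the count in stellate-like cells, was at 673, 89.0, 161 and 11.5 CPM, with 106, 9, 9 and 1 UMIs and ratios of -2.92 (-4.09 to -1.94), -2.07 (-3.23 to -1.09) and -5.87 (-11.19 to -3.36). Those of the wider set were -1.63, -1.40 and -1.87 for Ccn2 and -2.13, -0.93 and -4.12 for Ccn1. Those of the stricter set were -2.51, -3.48 and -2.27 for Ccn2 and -3.79, -2.10 and -5.91 for Ccn1. All 3 libraries were below WT, and 1 WT cell held 52 of the 256 UMIs of both genes in WT. The same WT cell held the most Hspa1a and Hspa1b UMIs, 79, and the next WT cell by Ccn1 and Ccn2, with 42, had 36 of them. Hspa1a, Hspa1b, Jun and Egr1 were also highest in WT, as given below, and what moves them together with Ccn1 and Ccn2 was not tested. Without the cell with the most of them in each library, their sum was at 1341, 202, 183 and 141 CPM. In endothelial cells Ccn2 was at 88.2, 116.7, 17.2 and 59.1 CPM. The lowest value was in TAZKO as in stellate-like cells, but YAPKO lay above WT there.

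The list of YAP targets as a whole was mixed. Of 22 listed genes 4 were tested in stellate-like cells, of which 2, 1 and 2 were lower in YAPKO, TAZKO and DKO and 1 was higher in YAPKO, with medians of -1.09, -0.06 and -1.05. Of all 401 genes 12.2%, 5.99% and 4.49% were lower, and 8.73% were higher in YAPKO. The stricter set had 1, 1 and 2 lower and 1 higher in YAPKO, with medians of -0.27, -0.09 and -1.11. The wider set had 1, 1 and 2 lower and none higher, with medians of -0.16, 0.17 and -0.83. Of all 401 genes 20, 26 and 17 were lower in the stricter set and 19, 31 and 13 in the wider set. The higher YAP target was Ccdc80, a secreted matrix-binding protein, at 235 CPM in WT, 860.3 in YAPKO, 268 in TAZKO and 299 in DKO. Its ratio in YAPKO was 1.87 (1.30 to 2.47), 1.49 (0.72 to 2.25) in the stricter set and 0.49 (0.23 to 0.74) in the wider set, so the call is lost in the last. The fourth gene, Rbms3, an RNA-binding protein, had ratios of -0.93, 0.08 and 0.03, and of -0.43, 0.57 and 0.10 in the wider set.

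**Figure D5:**
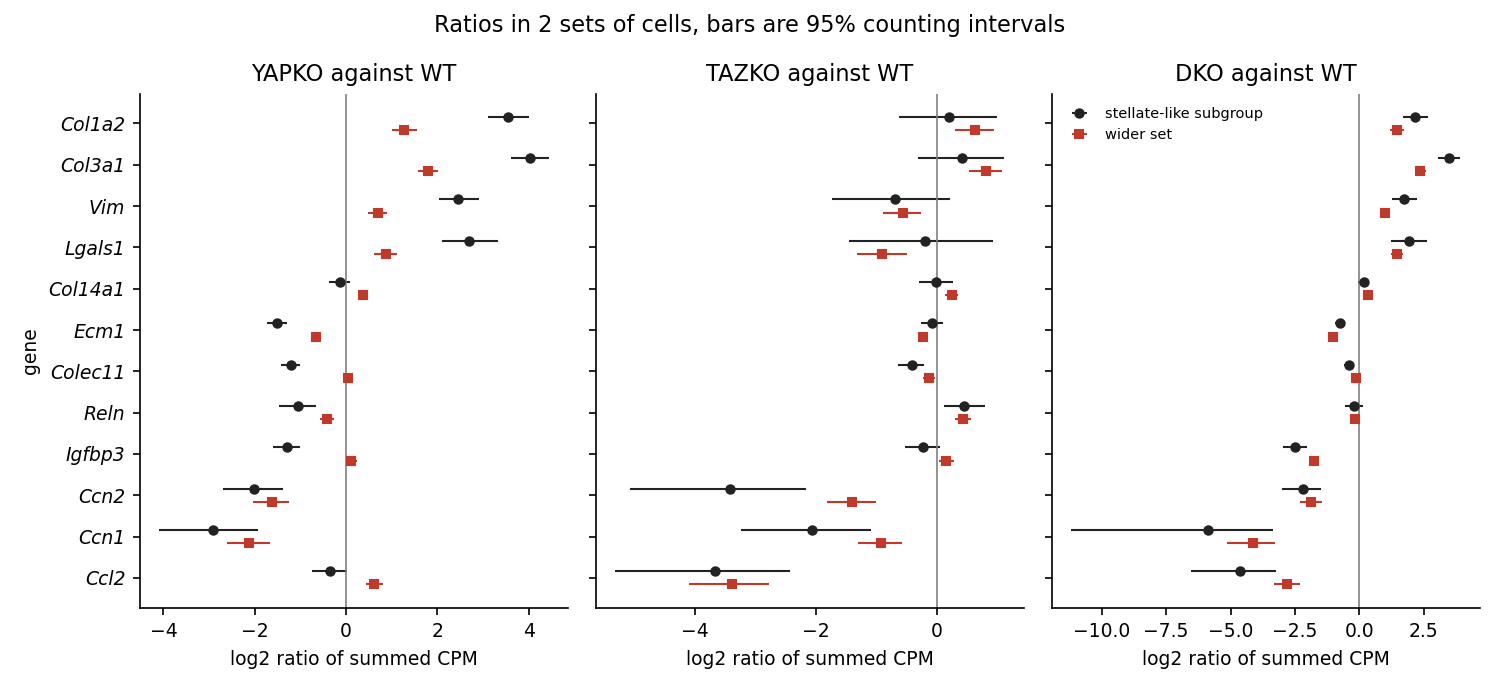
Log2 ratio of summed CPM to WT for 12 genes in YAPKO, TAZKO and DKO, in the 62 stellate-like cells (circles) and in the wider set without the endothelial limit (squares), with 95% intervals from counting error only. Col1a2 and Col3a1 lie right of 0 in YAPKO and DKO in both sets, Ccn1 and Ccn2 left of 0 in all 3 libraries, and Igfbp3 and Colec11 in YAPKO move to near 0 in the wider set, which was chosen in part on Colec11.

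The promoters of genes that carry these differences are shown for the letters they hold, as 300 bases from 250 before to 50 after the gene start in RefSeq on GRCm38.p6. Of 8 genes looked for by symbol in the promoter table used here, 6 matched, and Ccn2 and Col1a1 did not. Capitals mark GGAATG or its complement CATTCC, the core to which TEAD factors can bind, and CCAAT or ATTGG, a common promoter box. GGAATG on either strand occurs in 4817 of 32851 mouse promoters of this length (14.7%) and CCAAT in 12289 (37.4%). Ccn1 lies at chr3:145649936-145650235 on the minus strand, Col1a2 at chr6:4505368-4505667 and Col3a1 at chr1:45311288-45311587 on the plus strand, and Igfbp3 at chr11:7213874-7214173 on the minus strand.
Ccn1: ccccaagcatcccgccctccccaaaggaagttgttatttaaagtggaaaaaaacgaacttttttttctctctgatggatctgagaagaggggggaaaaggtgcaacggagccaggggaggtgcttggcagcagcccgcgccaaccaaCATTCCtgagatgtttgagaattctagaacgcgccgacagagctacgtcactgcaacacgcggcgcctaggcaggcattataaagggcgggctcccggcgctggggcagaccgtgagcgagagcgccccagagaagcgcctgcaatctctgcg
Col1a2: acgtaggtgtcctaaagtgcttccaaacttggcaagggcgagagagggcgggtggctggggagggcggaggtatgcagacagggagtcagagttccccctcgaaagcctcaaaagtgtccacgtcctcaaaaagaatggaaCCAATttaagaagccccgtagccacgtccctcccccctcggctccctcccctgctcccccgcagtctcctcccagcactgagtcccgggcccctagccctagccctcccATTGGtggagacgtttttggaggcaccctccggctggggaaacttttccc
Col3a1: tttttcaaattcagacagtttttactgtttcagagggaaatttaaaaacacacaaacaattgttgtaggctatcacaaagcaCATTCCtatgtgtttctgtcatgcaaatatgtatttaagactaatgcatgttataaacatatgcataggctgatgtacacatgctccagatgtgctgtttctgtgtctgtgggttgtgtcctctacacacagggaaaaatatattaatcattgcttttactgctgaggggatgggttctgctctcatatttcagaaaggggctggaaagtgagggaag
Igfbp3: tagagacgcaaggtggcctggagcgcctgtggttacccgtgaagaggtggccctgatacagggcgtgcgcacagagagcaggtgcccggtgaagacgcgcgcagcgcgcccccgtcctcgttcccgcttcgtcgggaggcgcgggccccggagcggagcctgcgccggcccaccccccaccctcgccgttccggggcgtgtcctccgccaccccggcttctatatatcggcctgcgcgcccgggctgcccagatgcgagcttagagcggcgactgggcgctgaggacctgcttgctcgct
Ccn1 and Col3a1 hold GGAATG once each, Col1a2 holds CCAAT 2 times, and Igfbp3 holds neither. A match is a run of letters and not a bound site, and the absence of a match says only that these letters are not in this window.

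Among secreted signals, Ccl2 separated the libraries along other lines. Ccl2, a chemokine for monocytes, was at 1137 CPM in WT, 890.0 in YAPKO, 89.3 in TAZKO and 46.0 in DKO, with log2 ratios of -0.35 (-0.74 to 0.02), -3.67 (-5.31 to -2.42) and -4.63 (-6.52 to -3.25). In the wider set it was at 426, 656, 40.5 and 61.3 CPM, with ratios of 0.62 (0.43 to 0.81), -3.39 (-4.10 to -2.77) and -2.80 (-3.31 to -2.32). It was low in TAZKO and DKO, the same split of libraries as for the copies Rps3a1 and Rps3a3 below, and library and genotype cannot be told apart. In YAPKO it was held by 3 of 8 cells. In WT it was uneven too: of 179 UMIs, single cells held 54, 32, 28 and 25, and many cells had 0. In Kupffer cells Ccl2 was at 42.1, 38.1, 15.98 and 31.6 CPM, with smaller ratios. Hgf, the hepatocyte growth factor, was at 1245, 396, 911 and 909 CPM, a ratio of -1.65 in YAPKO (-2.18 to -1.16), -1.06 (-1.66 to -0.51) without the Col1a1-high cells, -0.74 (-1.33 to -0.18) in the stricter set and -0.32 (-0.49 to -0.15) in the wider set. Of the 7 secreted signals tested, 4 were lower in YAPKO, 1 in TAZKO and 2 in DKO and none higher, with medians of -1.05, -0.28 and -0.44. Of all 401 genes 12.2%, 5.99% and 4.49% were lower. The stricter set had 0, 1 and 2 lower, with medians of -0.21, -0.33 and -0.49, and the wider set 0, 2 and 2 lower, with medians of -0.32, -0.09 and -0.43. Of all 401 genes 20, 26 and 17 were lower in the stricter set and 19, 31 and 13 in the wider set.

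The heat shock genes Hspa1a and Hspa1b, which encode an inducible chaperone of the HSP70 family, were higher in WT than in the other 3 libraries. Their transcripts are near copies, so reads may pass between them and only the sum is read here. The sum was at 1912 CPM in WT, 49.5 in YAPKO, 179 in TAZKO and 57.5 in DKO in stellate-like cells. Without the cell with the most of these UMIs in each library it was at 1459, 11.2, 59.1 and 27.0 CPM. Over the wider set it was at 789, 15.7, 162 and 89.6 CPM. The same order of WT, TAZKO, DKO and YAPKO held in endothelial cells, at 515, 253, 73.5 and 18.3 CPM, and in Kupffer cells, at 423, 243, 109 and 31.6 CPM. In hepatocytes the order was also WT, TAZKO, DKO and YAPKO, at 98.2, 60.7, 14.0 and 10.8 CPM. The difference was therefore not particular to stellate-like cells and ran through each cell type read here.

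The promoters of this pair are shown because they are so alike. Hspa1a lies at chr17:34972107-34972406 and Hspa1b at chr17:34959189-34959488, both on the minus strand of GRCm38.p6, and 296 of the 300 bases match. Capitals mark CCAAT or ATTGG and GAANNTTC, a pair of the inverted units to which heat shock factor 1 binds, which reads the same on both strands and occurs in 2582 of 32851 promoters (7.86%).
Hspa1a: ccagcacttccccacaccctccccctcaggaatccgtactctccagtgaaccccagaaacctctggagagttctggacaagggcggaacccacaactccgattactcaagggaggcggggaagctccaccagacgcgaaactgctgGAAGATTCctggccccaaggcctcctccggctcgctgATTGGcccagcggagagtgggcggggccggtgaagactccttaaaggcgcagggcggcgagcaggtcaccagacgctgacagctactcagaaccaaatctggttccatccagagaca
Hspa1b: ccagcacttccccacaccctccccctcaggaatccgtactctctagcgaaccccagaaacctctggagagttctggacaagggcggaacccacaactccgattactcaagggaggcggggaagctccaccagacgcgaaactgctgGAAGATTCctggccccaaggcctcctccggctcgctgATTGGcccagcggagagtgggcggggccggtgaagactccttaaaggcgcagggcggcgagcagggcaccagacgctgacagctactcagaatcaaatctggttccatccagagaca
Each of the 2 promoters holds GAANNTTC once and CCAAT once.

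Immediate early genes, which many stimuli induce within minutes, were mostly below the floor in stellate-like cells. Only Jund and Hspa8 of 21 listed genes were tested there, and neither passed 2-fold, with medians of 0.12, -0.06 and 0.12. Jun was at 724 CPM in WT, 307 in YAPKO, 89.3 in TAZKO and 173 in DKO, and Egr1 at 381, 89.0, 125 and 11.5 CPM. Both were highest in WT. For the wider set Jun was at 286, 195, 162 and 249 CPM and Egr1 at 307, 87.9, 61.8 and 47.2 CPM.

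Interferon-stimulated genes differed in part between the sets of cells. Of 26 listed genes 7 were tested in stellate-like cells, of which 1 was lower in TAZKO and none passed in YAPKO or DKO, with medians of 0.04, -0.07 and -0.17. Of all 401 genes 5.99% were lower in TAZKO. The 1 listed gene was Isg15, a ubiquitin-like modifier, at 553 CPM in WT, 564 in YAPKO, 232 in TAZKO and 322 in DKO. Without the Col1a1-high cells it was at 212 CPM in YAPKO, a log2 ratio of -1.38 (-2.44 to -0.47). Of the 7 genes in the wider set 0, 2 and 2 were lower and none higher, with medians of 0.22, -0.34 and -0.35, against 0.07, -0.19 and 0.07 for all genes there. Of all 401 genes 19, 31 and 13 were lower in that set. Isg15 in the wider set was at 369, 617, 106 and 140.0 CPM, with log2 ratios of 0.74 (0.54 to 0.94), -1.80 (-2.23 to -1.39) and -1.40 (-1.75 to -1.07). The single TGF-beta and PDGF gene tested was Eng, the co-receptor endoglin, with ratios of -1.05, -0.11 and -0.28, and the wider set gave 0.00 in YAPKO. The 2 portal-side genes tested, Igfbp3 and Tagln, went apart in YAPKO and DKO, with medians of 0.35, -0.47 and -0.48, and the central-side gene Rspo3, a Wnt agonist, had ratios of -0.39, 0.44 and -0.22. No gene of the Hippo, cell division and sex-linked lists was tested in these cells.

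Some genes outside the lists, named after their values were seen, also passed. Mt1, a metal-binding metallothionein, was at 413 CPM in WT, 1572 in YAPKO, 214 in TAZKO and 2369 in DKO, with log2 ratios of 1.93 (upper bound 2.37), -0.95 (-1.97 to -0.04) and 2.52 (2.11 to 2.95), and of 0.75, -0.98 and 0.44 in the wider set and 2.94, -0.99 and 2.48 in the stricter set. Its hepatocyte level was 217, 1780.4, 99.3 and 158 CPM. Fcna, the lectin ficolin-A, was at 1550.1, 356, 608 and 322 CPM, with ratios of -2.12, -1.35 and -2.27, and of -1.30, -1.38 and -1.85 in the wider set. Fcna was thus lower than in WT in all 3 libraries in both sets. Kupffer cells carry more of it, at 2574, 3048, 2137 and 1683 CPM, and Kupffer cell markers were highest in the WT chosen cells. The part of Kupffer cell RNA in Fcna was not tested. Ramp1, a receptor-modifying protein, was at 1804, 940, 840 and 782 CPM, with ratios of -0.94, -1.10 and -1.21, and of 0.23, -0.71 and -0.74 in the wider set.

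The 10 named lower genes of TAZKO in stellate-like cells held only Ccl2 and Ccn2 with a log2 ratio below -3 besides Rps3a1, and the 3 named higher genes were Mir6236, Vipr1 and Rpl30. TAZKO had the shallowest stellate-like sum, 55971 UMIs against 157412 in WT. Its place by number of genes past 2-fold differed between sets: fewest in stellate-like cells, most in the wider set and between the others in the stricter set. Rps3a1, a ribosomal protein gene, has near-identical copies in the genome, so its values are uncertain. It was at 1353, 1919, 143 and 92.0 CPM, while the annotated copy Rps3a3 was at 0, 0, 822 and 1207 CPM. Their sum was at 1353, 1919, 965 and 1299 CPM. The same switch between the copies was present in hepatocytes, endothelial cells and Kupffer cells. The 4 matrices list the same 55488 genes, and whether the libraries were counted with the same settings was not tested, which bears on each comparison of WT or YAPKO with TAZKO or DKO. Gm8420, annotated as a processed pseudogene, had 0 UMIs in TAZKO stellate-like cells and 42, 42 and 32 in WT, YAPKO and DKO.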

How the data were processed

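The values are the gene-by-cell matrices of UMI counts that the authors deposited, 1 per library, read as raw counts: each entry is a whole number of UMIs. The processing notes name 10x 3' v3.1 chemistry and Cell Ranger 6.0.1 with mm10, while the matrix headers name 4.0.0. The libraries hold 13657 barcodes and 66259687 UMIs in WT, 7711 and 85989454 in YAPKO, 14418 and 49022089 in TAZKO, and 9188 and 77411746 in DKO, over 55488 genes. The limits of 500 to 6000 were read as detected genes, which kept 7155, 6275, 8638 and 8294 cells. Of cells otherwise chosen, 35 had under 500 genes, 4 over 6000 and 5 over 10% mitochondrial UMIs.

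UMIs were summed over the cells of a library and given as UMIs in 1000000 UMIs (CPM) with exact Poisson 95% intervals. Ratios are log2 ratios of CPM with exact conditional binomial 95% intervals, which hold counting error only. A gene with 0 UMIs in 1 library is given as at least a fold, with 3 UMIs in place of 0. A gene was tested at a mean of 50 CPM or the level due 20 UMIs in the shallowest library, whichever was higher, and passed at 2-fold with 1 added to each count. No p-value was computed. No doublets were removed, and an alternative left out the top 8% of Scrublet scores.

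Subgroups came from 1000 variable genes among those detected in at least 5 chosen cells. Values were scaled to 10000 UMIs per cell, log-transformed and centred within library. Clustering used 10 principal components, 10 neighbours and the Leiden method at resolution 0.3, with no minimum size of a subgroup. Other cell types were kept cells with at least 10% hepatocyte, 2% endothelial or 2% Kupffer cell marker UMIs and less than 0.2% stellate UMIs. Endothelial UMIs were under 0.5% in the other 2, Ptprc was 0 in hepatocytes and endothelial cells, and Kupffer cell UMIs were under 0.5% in endothelial cells. Named genes are list members and, in each direction, up to 10 genes past 2-fold against WT, or 5 for DKO against YAPKO, whose interval bound nearest to 0 is farthest from 0. They have a mean CPM at least that of the other kept cells and are not mitochondrial, hemoglobin, hepatocyte, endothelial or immune markers. A few more were named after their values were seen. The 16 lists are rule, identity, retinoid, activation, collagen, matrix, TGF-beta and PDGF, Hippo, YAP target, secreted signal, interferon, immediate early and heat shock, portal-side, central-side, cell division and sex-linked genes. Members and lists were chosen with earlier results of these data known. Promoters are RefSeq on GRCm38.p6. Python 3.11.15, numpy 2.4.6, scipy 1.17.1, pandas 2.3.3, scanpy 1.11.5, igraph 0.11.9 and matplotlib 3.10.9 were used.

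The limits are as follows. Each genotype is 1 mouse and 1 library, so no difference between mice can be estimated and cells are not replicates. The comparisons share WT. Stellate-like sums rest on 8 to 24 cells, and single cells decide several values, and some of these are given without them. The marker genes chose the cells, so their levels are no result. RNA from other cells in the droplets was not modelled. Some results are not reported here. The shares of cells describe mixed suspensions. Sex was not stated: Xist had 0 UMIs in the chosen cells of each library and Ddx3y had 23, 9, 13 and 15.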

Additional observations from a re-analysis of the deposited data

Results flagged for a closer look

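The endothelial limit left out more cells that reached the stellate marker sum than the rule kept: 123 in WT, 58 in YAPKO, 93 in TAZKO and 69 in DKO, against 28, 12, 25 and 21 chosen. These cells held 54.3% of the Dcn UMIs of all kept cells. They are described here only through the wider set and the alternative without the limit, and whether they hold RNA of more than 1 cell was not tested.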

How the results depend on the processing

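No paired analysis was possible because the libraries come from different mice with nothing that matches 1 to another. The settings are named after what they change, and 7 of them were added after the data were seen: no endothelial limit, clustering without centring, leaving out the Col1a1-high cells, the wider set, the stricter set, and each of these 2 sets without the cell with the most collagen UMIs in each library. The readings in stellate-like cells and of shares of cells given below were also not planned. In all, 505 log2 ratios of named genes over all chosen cells stayed, 146 moved and 5 reversed, and in stellate-like cells 928, 368 and 17. The 5 include bounds of Dpt and of Mgp in TAZKO that show no reversal, as given below. Of list medians 554 stayed, 101 moved and 5 reversed, and in stellate-like cells 520, 90 and 5. A ratio moved when it left the counting interval given here, a median when it shifted by over 0.5, a number of genes when it differed over 1.5-fold and a share when it left its interval. Where no cause is given it was not tested.

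Reading the limits of 500 to 6000 as UMIs per cell left 17, 4, 31 and 5 cells, so sums are small. The share was 0.165% in WT and 0.107% in DKO. Genes past 2-fold numbered 378 in YAPKO, 342 in DKO and 289 in DKO against YAPKO (185, 168 and 87 here), and 147 in YAPKO, 73 in TAZKO and 128 in DKO in stellate-like cells (84, 39 and 48 here). Reversed over all chosen cells were the medians of rule genes (0.38) and identity genes (0.12) and Sgk1 (0.54) in YAPKO and Mgp (1.06) in TAZKO. In DKO the immediate early (1.07) and portal-side (0.53) medians reversed, with portal-side at 0.17 in DKO against YAPKO. Dpt in TAZKO (-0.53) was counted as reversed too, but it is a lower bound, so it shows no reversal. Reversed in stellate-like YAPKO cells were the rule (0.12) and TGF-beta (0.70) medians, Angptl6 (0.36), CT010467.1 (0.06), Col1a2 (-0.25), Ecm1 (0.57), Mir6236 (0.90), Reln (0.59), Tpm1 (-0.93) and Vim (-1.25), and in DKO Angptl6 (0.81).

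A marker sum of at least 1.6% gave shares of 0.0956% in YAPKO, 0.185% in TAZKO and 0.121% in DKO, 147 genes in DKO against YAPKO and 50 in stellate-like YAPKO cells. Mgp in TAZKO (0.92) and Mfap5 in DKO (-0.63) were counted as reversed, and both values are bounds. That of Mgp is an upper bound from 0 UMIs in TAZKO, so it shows no reversal. Yap1 in YAPKO had 0 UMIs against 11, a bound of -0.21. With 5 genes in the marker sum 46 genes passed in stellate-like YAPKO cells. Leaving out cells above the median hepatocyte sum gave 137 genes in DKO against YAPKO, and 133 in YAPKO and 77 in DKO in stellate-like cells.

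Without the endothelial limit the shares were 2.03%, 0.924%, 1.10% and 0.808%, and 73, 102 and 81 genes passed in YAPKO, TAZKO and DKO. Yap1 in YAPKO was at -0.19. In the wider set 25 genes passed in YAPKO and 24 in DKO, and Colec11 (0.04), Igfbp3 (0.11) and the TGF-beta median (0.00) in YAPKO reversed. Without the Col1a1-high cells 46 passed in YAPKO. In the stricter set, with at least 0.2% from Lrat, Reln and Colec11, 39 passed in YAPKO, and the rule median (0.01), Colec10 (0.20) and Colec11 (0.01) in YAPKO reversed. Without the top collagen cell of each library the stricter set had 44 genes in YAPKO, with Colec10 (0.23) and Colec11 (0.06) reversed, and the wider set 25 in YAPKO and 24 in DKO, with Colec11 (0.06), Igfbp3 (0.10) and the TGF-beta median (0.02) in YAPKO reversed.

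A floor 3 times as high leaves fewer genes, and 68, 58 and 53 passed against WT and 23 in DKO against YAPKO, with 31, 10 and 15 in stellate-like cells. The mean over cells gave 62 in stellate-like TAZKO cells. Both scalings, 0.5 added and 20% mitochondrial UMIs moved no list median. Scaling by the median ratio moved 2 named genes in stellate-like cells, where the TAZKO split was 19 higher and 17 lower. Leaving out the top 8% of doublet scores moved 6 named genes over all chosen cells and 9 in stellate-like cells, and reversed none.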

Other observations

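Rps3a1 and its annotated copy Rps3a3 change places between libraries in each cell type read. Over all other kept cells Rps3a1 was at 1439 CPM in WT, 1803 in YAPKO, 121 in TAZKO and 133 in DKO, and Rps3a3 at 0.498, 0.721, 1133 and 1287 CPM. WT and YAPKO stand on 1 side and TAZKO and DKO on the other. The copies are near-identical, so the assignment of reads to them is uncertain. The 4 matrices list the same 55488 genes. Whether the libraries were counted with the same settings was not tested, and it would bear on each comparison across these sides.

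CT010467.1 and Mir6236 took a large part of all UMIs and differed between libraries. In stellate-like cells CT010467.1 was at 26605 CPM in WT, 10295 in YAPKO, 46488 in TAZKO and 8671 in DKO, and over all other kept cells at 29316, 12228, 31109 and 7933 CPM. Mir6236 was at 3126, 1029, 8022 and 759 CPM in stellate-like cells and at 4024, 1077, 6978 and 669 CPM over all other kept cells. The cause was not tested.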
